A study of Arabidopsis thaliana with 29 samples.

Results

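The tetrapyrrole pathway makes chlorophyll, haem and the bilin chromophore of phytochrome from glutamate, and 34 nuclear genes of it were examined by RNA sequencing in Arabidopsis seedlings. They are the loci with listed identifiers for the synthesis of 5-aminolevulinate (ALA, 4 genes), the porphyrin steps (7), the magnesium branch to chlorophyll (14), the haem and bilin branch (4), the regulators FLU and GUN1 (2) and chlorophyll breakdown (3). All 34 were found among the 59999 loci of the count table, and membership follows gene function and uses no count. The list was, however, chosen with earlier results of these data known.

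Whole seedlings were sampled at 7 days of age, after growth on Murashige and Skoog medium under white light in a cycle of 16 h light and 8 h dark, with a sucrose entry of 0.01 in the labels. The WT group had 3 libraries. The GFP-HY5 group is a hy5 mutant line that carries 2x35S::GFP-HY5. This is a fusion of green fluorescent protein to the light-signalling transcription factor HY5 under the constitutive 35S promoter. The fusca group (3 libraries) is labelled with the same transgene and mutant background, 2x35S::GFP-HY5/hy5, and with the fusca phenotype. That phenotype is a dark-pigmented seedling form known from mutants that develop in darkness as if in light. The labels do not say whether the GFP-HY5 and fusca seedlings descend from 1 transformant. Nor do they say how seedlings were pooled or whether replicates came from separate cultures. The p-values thus measure the spread between these libraries, which may be technical. The 3 GFP-HY5 columns held identical values and were counted as 1 library, so no comparison with it has a test.

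In this pathway, ALA is made in the plastid from glutamate bound to a transfer RNA, and ALA units are condensed and oxidised to protoporphyrin IX. Magnesium chelatase then directs protoporphyrin towards chlorophyll, and ferrochelatase directs it towards haem, from which phytochromobilin derives. Free chlorophyll precursors are phototoxic, and the first steps of both the common pathway and the magnesium branch are known control points in greening seedlings.

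Counts over loci were 11860094 to 12545563 per library, and levels are given as CPM (counts scaled to a common library size, adjusted between libraries by TMM factors). HY5 itself ranged from 12.1 to 16.2 CPM in WT and from 129 to 187 in fusca, with 77.4 in the GFP-HY5 library, where counts do not separate the transgene from the endogenous locus. Fusca replicate 2 differed at least 2-fold from the other fusca libraries at 1987 of the 21820 tested loci, against 589 and 522 for replicates 1 and 3, but at 0 of the 33 tested tetrapyrrole genes, of which 25 lay above the mean of the other 2 libraries. The median difference over all 33, the lower ones included, was 0.32 on the log2 scale. Without it 31 genes passed the test described below, with HY2 as the added call. Transcripts of 7 seed storage proteins summed to 199 CPM in fusca replicate 2 and to at most 3.52 CPM in each of the other libraries. Of 8 root marker genes, 3 were lower in fusca, 3 higher and 2 not past the threshold, against 18.4% lower and 16.7% higher over all tested loci. The sum of the 8 ranged from 515 to 758 CPM in WT and from 258 to 343 in fusca, with 470 in the GFP-HY5 library. No marker was at 0 in every library. The sum is carried by IRT1, the root iron transporter, which fell from 379 ± 130 to 6.11 ± 1.92 CPM (SD, n = 3), and the other 7 markers, a sum formed after the values were seen, totalled 213 to 229 CPM in WT, 241 in the GFP-HY5 library and 249.97 to 339 in fusca. The part of these differences in the results below was not tested, and in whole seedlings fewer cells of a type and less RNA per cell cannot be told apart.

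Most of the listed genes were lower in fusca than in WT. Of 33 genes with enough counts to be tested, 30 fell, 0 rose and 3 did not pass the threshold (quasi-likelihood test in edgeR with p adjusted by Benjamini-Hochberg over all 21820 loci, threshold 0.05). Over all tested loci 35.1% passed, 18.4% lower and 16.7% higher in fusca. With an unadjusted p under 0.05 the count of higher genes was also 0, and DESeq2 gave 30 lower and 0 higher. The fall was at least 2-fold in 25 of the 33, which 11.8% of all loci reached, and the WT and fusca libraries did not overlap in 30 genes, against 49.8% of loci. The median log2 fold change was -2.06 for the 33 listed genes and 0.05 for all tested loci. It was -0.90 for 21 further tested loci of the pathway, of which 12 fell, 4 rose and 5 did not pass the threshold. Summed over the 34 genes, the level was 8226, 8472 and 9212 CPM in the WT libraries, 8162 in GFP-HY5 and 1847, 2141 and 1877 in fusca, so that the fusca mean was 22.6% of the WT mean. The GFP-HY5 sum lay just under the lowest WT library, and the 3 fusca sums lay far below both.

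These sizes rest on the scaling of the libraries. Where libraries were scaled by their size alone, the median over all loci shifted by 0.45 on the log2 scale, the share of higher calls among all calls went from 47.6% to 79.8% (61.1% with upper-quartile factors, at a shift of 0.15), and 27 tetrapyrrole genes remained lower while FC1 and SGR1 were called higher. The table is of sense-strand counts. By position, 17 of the 34 genes overlap another annotated locus (HEMC, HEME1, PPOX1, CHLD, CHLI1, CHLI2, GUN4, CHLM, CRD1, PORB, PORC, CAO, CHLP, HY2, FC1, FLU and PAO). The strand of these loci was not available, so the counts of the 17 may be uncertain, and which of them are affected cannot be told. Of the 16 tested genes without such an overlap, 15 fell, with a median of -1.84.

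**Figure D1:**
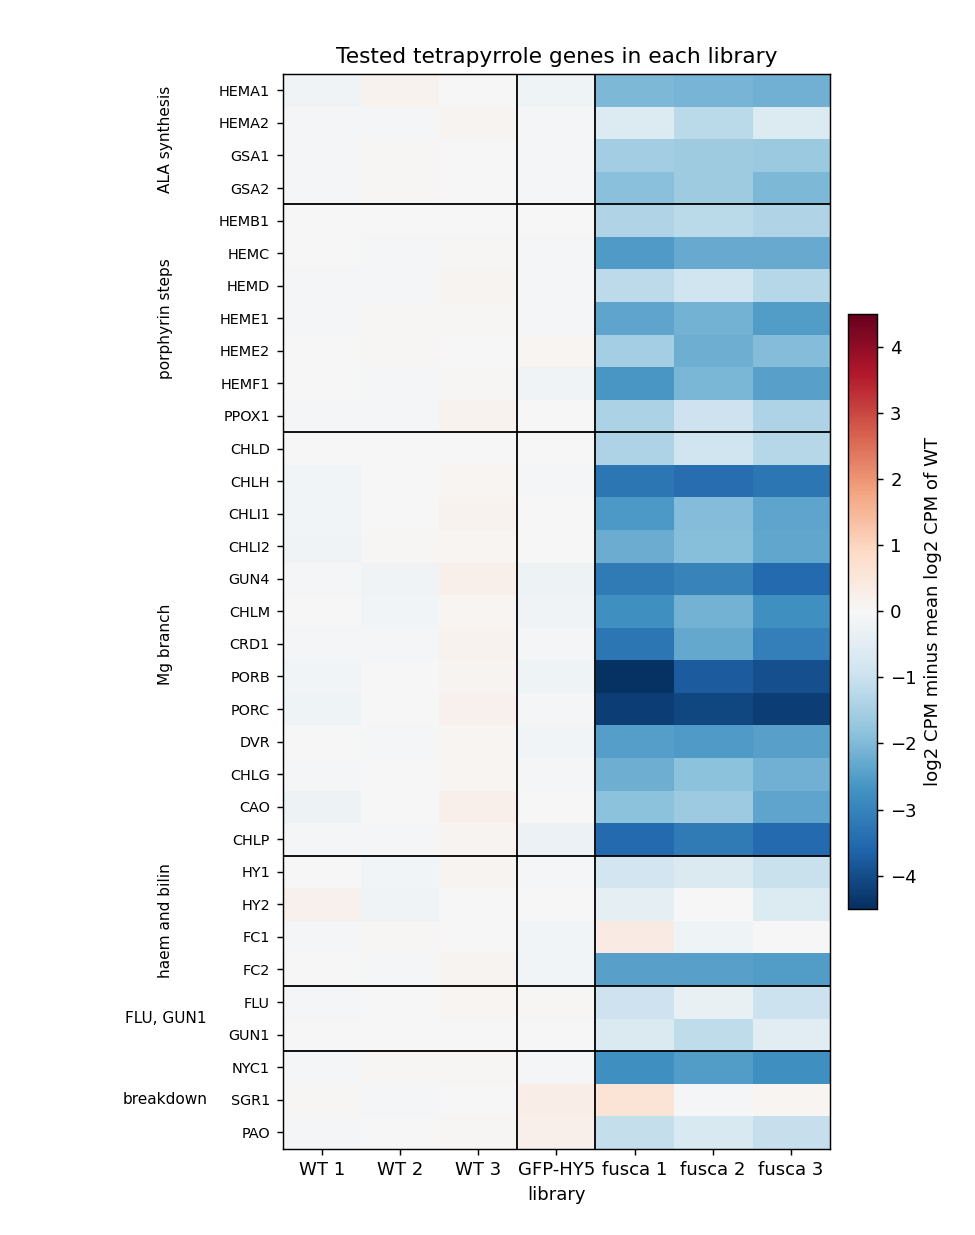
Colour gives the log2 CPM of each of the 33 tested genes (rows, grouped by step) in each library (columns) minus the mean log2 CPM of the 3 WT libraries. The 3 fusca columns are blue through the ALA, porphyrin and magnesium steps, deepest at PORB and PORC, and pale at HY2, FC1 and SGR1, whereas the GFP-HY5 column stays within 0.32 of WT.

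The 4 listed genes of ALA synthesis fell. Glutamyl-tRNA reductase, encoded by HEMA1 (AT1G58290) and HEMA2 (AT1G09940), is the rate-limiting enzyme of the pathway. HEMA1 stood at 149, 184 and 165 CPM in WT replicates 1 to 3, at 144 in GFP-HY5 and at 40.1, 38.2 and 36.5 in fusca. Its fusca libraries lay within 4 CPM of each other and well under every other library, and the log2 fold change was -2.12 ± 0.14 (SE; edgeR adjusted p = 5.5e-06). HEMA2, the isogene known from non-photosynthetic tissue, stood at 34.8, 33.4 and 39.4 CPM in WT, 34.6 in GFP-HY5 and 23.4, 15.3 and 23.2 in fusca. The groups did not overlap, but the fall was smaller, with a log2 fold change of -0.79 ± 0.18 (SE; edgeR adjusted p = 0.0083). It was not past the threshold without WT replicate 3 (-0.68, edgeR adjusted p = 0.063) or with library size only (-0.33, edgeR adjusted p = 0.18; range over the alternatives 5.3e-04 to 0.18).

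The next enzyme, glutamate-1-semialdehyde aminotransferase, is also encoded by an isogene pair. GSA1 (AT5G63570) was at 176, 190 and 180 CPM in WT, 174 in GFP-HY5 and 61.2, 60.2 and 56.8 in fusca, a log2 fold change of -1.61 ± 0.13 (SE). GSA2 (AT3G48730) was at 251, 266 and 257 CPM in WT, 249.6 in GFP-HY5 and 69.7, 85.4 and 63.6 in fusca, a change of -1.82 ± 0.16 (SE). Both genes thus stood at about 28.3% to 32.7% of their WT mean, with no fusca library near a WT or GFP-HY5 value.

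All 7 listed genes of the porphyrin steps, which turn ALA into protoporphyrin IX, fell. Their log2 fold changes ran from -1.11 to -2.36, with a median of -1.87. PPOX2 and HEMF2, isogenes outside the list, did not pass the threshold (-0.19 and 0.24, edgeR adjusted p = 0.31 and 0.30). HEMF1 (AT1G03475, also LIN2), coproporphyrinogen oxidase, had 265, 246 and 271 CPM in WT, 234 in GFP-HY5 and 42.2, 63.0 and 47.5 in fusca, with a log2 fold change of -2.36 ± 0.18 (SE; edgeR adjusted p = 1.1e-05). HEMC (AT5G08280), hydroxymethylbilane synthase, changed by -2.35 and HEME1 (AT3G14930), a uroporphyrinogen decarboxylase, by -2.34, so these 3 genes differed by less than their standard errors and have no order among them. HEMD (AT2G26540), uroporphyrinogen III synthase, changed less, with 39.7, 40.7 and 45.0 CPM in WT, 39.5 in GFP-HY5 and 18.6, 22.2 and 17.2 in fusca (log2 fold change -1.11 ± 0.15 SE; edgeR adjusted p = 3.0e-04). HEMB1 (AT1G69740), ALA dehydratase, and PPOX1 (AT4G01690), protoporphyrinogen oxidase, stood close to it at -1.30 and -1.23. The first and last enzymes of these steps and HEMD thus kept 40.5%, 42.5% and 46.2% of the WT mean level, and HEMC, HEME1 and HEMF1 19.5% to 19.7%.

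HEME1 and HEME2 encode the same activity. HEME1 stood at 160, 175 and 177 CPM in WT, 160 in GFP-HY5 and 32.6, 39.0 and 29.4 in fusca, and HEME2 (AT2G40490) at 177, 188 and 180 in WT, 193 in GFP-HY5 and 63.2, 39.2 and 47.1 in fusca. The fusca libraries spread more in HEME2 than in HEME1, and the change of HEME2 was -1.87 ± 0.19 (SE; edgeR adjusted p = 5.3e-05).

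In the magnesium branch 13 of 14 genes could be tested and all 13 fell, with a median log2 fold change of -2.52. The summed level of the 14 was 4788, 4969 and 5584 CPM in WT, 4735 in GFP-HY5 and 673, 928 and 713 in fusca, which left a fusca mean of 15.1% of WT. The corresponding value was 29.8% for ALA synthesis and 27.0% for the porphyrin steps. These shares are descriptions, and no test was made between steps.

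Magnesium chelatase, which inserts the metal into protoporphyrin, has the subunits CHLH, CHLI and CHLD and is stimulated by the porphyrin-binding protein GUN4. CHLH (AT5G13630, also GUN5), the porphyrin-binding subunit, stood at 838, 935 and 980 CPM in WT, 888 in GFP-HY5 and 96.9, 85.5 and 96.1 in fusca. GUN4 (AT3G59400) stood at 106, 101 and 133 CPM in WT, 96.3 in GFP-HY5 and 12.1, 13.7 and 9.71 in fusca. Both kept little of the WT level (10.1% and 10.5%), with log2 fold changes of -3.30 ± 0.17 and -3.25 ± 0.19 (SE; edgeR adjusted p = 1.3e-06 and 2.0e-06).

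The CHLI and CHLD subunits of the same enzyme changed less. CHLI1 (AT4G18480) stood at 598, 638 and 729 CPM in WT, 638 in GFP-HY5 and 108, 168 and 124 in fusca (-2.29 ± 0.21 SE), and CHLI2 (AT5G45930) at 79.9, 90.5 and 94.7 in WT, 88.3 in GFP-HY5 and 18.8, 23.2 and 17.5 in fusca (-2.16 ± 0.16 SE). CHLD (AT1G08520) had the smallest change of the branch, with 295, 301 and 305 CPM in WT, 299 in GFP-HY5 and 114, 162 and 123 in fusca, and a log2 fold change of -1.18 ± 0.17 (SE; edgeR adjusted p = 5.2e-04). The genes of 1 enzyme complex therefore differed in size of change, from 44.3% of the WT level for CHLD to 10.1% for CHLH.

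Further along the branch, CHLM (AT4G25080), the methyltransferase that acts on magnesium protoporphyrin, changed by -2.52 and DVR (AT5G18660), the divinyl reductase, by -2.51. CRD1 (AT3G56940), a subunit of the cyclase that closes the fifth ring, changed by -2.83 ± 0.27 (SE), the largest standard error among the tested genes. Its fusca libraries were at 82.5, 162 and 94.2 CPM against 749 to 900 in WT and 745.5 in GFP-HY5, so replicate 2 was the highest of the 3 and still far under WT.

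Protochlorophyllide oxidoreductase, the light-requiring enzyme of chlorophyll synthesis, showed the largest changes of all. PORB (AT4G27440) stood at 424, 450 and 505 CPM in WT, 403 in GFP-HY5 and 20.6, 33.7 and 29.5 in fusca, a log2 fold change of -4.04 ± 0.22 (SE; edgeR adjusted p = 1.5e-06). PORC (AT1G03630) stood at 219, 252 and 283 CPM in WT, 241 in GFP-HY5 and 13.2, 14.5 and 13.2 in fusca, a log2 fold change of -4.21 ± 0.17 (SE; edgeR adjusted p = 5.0e-07). Fusca thus held 6.08% of the WT mean of PORB and 5.41% of that of PORC. PORA (AT5G54190), the isoform of etiolated seedlings, was at or near the floor of 3 counts in these light-grown seedlings, with 3, 1 and 2 counts in WT, 6 in GFP-HY5 and 0, 1 and 0 in fusca, and neither a fold change nor a test is given.

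The late genes divided into strong and moderate changes. CHLP (AT1G74470), the geranylgeranyl reductase that supplies the phytyl tail of chlorophyll, stood at 736, 725 and 844 CPM in WT, 631 in GFP-HY5 and 67.5, 84.7 and 67.0 in fusca (-3.39 ± 0.18 SE). CHLG (AT3G51820), chlorophyll synthase, changed by -2.06 and CAO (AT1G44446), the oxygenase that makes chlorophyll b, by -1.96, so that they kept 24% and 25.8% of the WT level. In order of change, PORC and PORB, then CHLP, CHLH and GUN4 formed the lower end, and within each of these sets the fold changes differed by less than their standard errors.

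**Figure D2:**
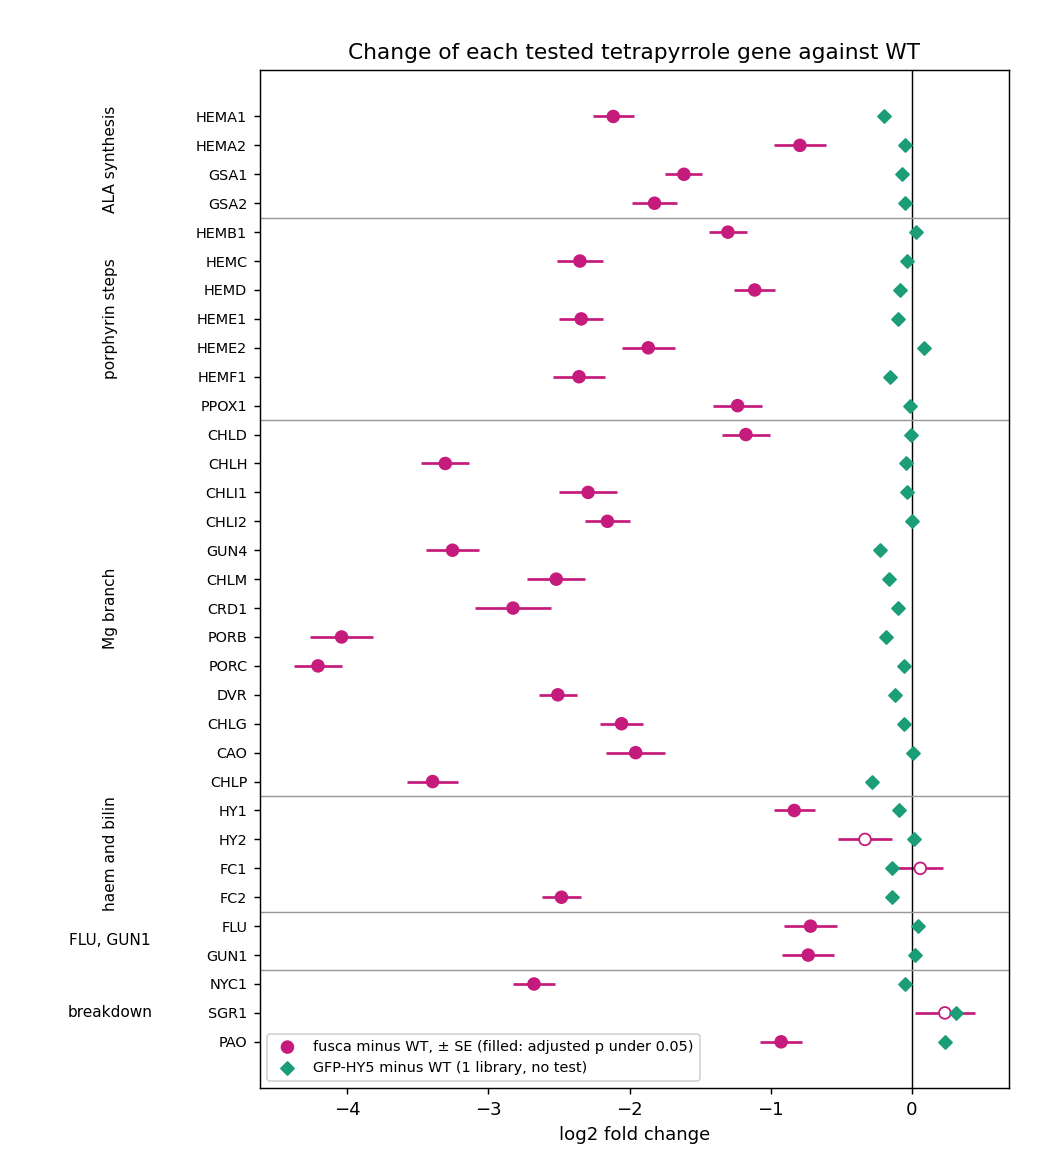
Points give the log2 fold change of each of the 33 tested genes in fusca against WT with its standard error (filled where past the threshold) and diamonds give the difference of the GFP-HY5 library from the WT mean, which has no test. Fusca values reach -4.21 at PORC and lie near 0 at FC1, whereas the diamonds lie between -0.28 and 0.32.

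The haem and bilin branch was mixed, with 2 of 4 genes lower. Ferrochelatase, which inserts iron into protoporphyrin, has isoforms whose values went apart here. FC2 (AT2G30390), the isoform of green tissue, stood at 177, 169 and 196 CPM in WT, 163 in GFP-HY5 and 32.9, 32.8 and 31.1 in fusca, a log2 fold change of -2.48 ± 0.14 (SE; edgeR adjusted p = 1.7e-06). FC1 (AT5G26030), which is expressed in all organs and induced by stress, stood at 44.2, 47.5 and 45.0 CPM in WT, 41.3 in GFP-HY5 and 58.2, 39.5 and 44.7 in fusca. Its groups overlapped, with a log2 fold change of 0.06 ± 0.16 (SE; edgeR adjusted p = 0.81). With library size only it was called higher (0.51, edgeR adjusted p = 0.035; range over the alternatives 0.035 to 0.89), and without fusca replicate 1 its sign turned to -0.12.

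HY1 (AT2G26670), the haem oxygenase that opens the haem ring, changed by -0.83 ± 0.15 on the log2 scale (SE; edgeR adjusted p = 0.0017), from 84.9 to 99.3 CPM in the WT libraries to 45.5 to 58.1 in fusca, with GFP-HY5 at 85.6. HY2 (AT3G09150), phytochromobilin synthase, stood at 20.8, 16.2 and 17.9 CPM in WT, 18.4 in GFP-HY5 and 13.6, 18.3 and 11.9 in fusca. Its groups overlapped and it did not pass the threshold (-0.33 ± 0.19 SE; edgeR adjusted p = 0.22, range over the alternatives 0.0085 to 0.63), except without fusca replicate 2, where it was -0.53, and its sign turned to 0.10 with library size only. The 4 genes together kept 43.4% of the WT sum.

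Because both isogenes of a pair come from the same library, the ratio of their counts does not depend on the scaling, and 7 pairs were compared between WT and fusca. The ratios are not corrected for gene length, so only their change is read. With 3 libraries a group, the exact permutation test cannot go below p = 0.10, and no pair could pass. The log2 ratio of FC2 to FC1 was 2.00, 1.83 and 2.12 in WT, 1.98 in GFP-HY5 and -0.82, -0.27 and -0.52 in fusca, a difference of -2.52 without overlap (exact permutation test, two-sided, p = 0.10; 0.23 adjusted over the 7 pairs). That of HEMA1 to HEMA2 was 2.097, 2.46 and 2.06 in WT, 2.06 in GFP-HY5 and 0.78, 1.32 and 0.65 in fusca, a difference of -1.29 without overlap (exact permutation test, two-sided, p = 0.10; 0.23 adjusted). For GSA1 to GSA2, HEME1 to HEME2, CHLI1 to CHLI2 and PORC to PORB the WT and fusca ratios overlapped, with differences of 0.22, -0.46, -0.15 and -0.13 and exact permutation p-values of 0.20 to 0.40. The seventh ratio, PORB to PORA, rests on 0 to 3 counts of PORA and is not read. In the FC and HEMA pairs the isogene associated with green tissue thus lost ground to its partner in each fusca library, whereas GFP-HY5 lay within or just under the WT range of both ratios. Not all isogenes are among the 7 pairs. PPOX1 and PPOX2 (-1.23 and -0.19) and HEMF1 and HEMF2 (-2.36 and 0.24) also differed in log2 fold change, and their ratios were not compared.

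**Figure D3:**
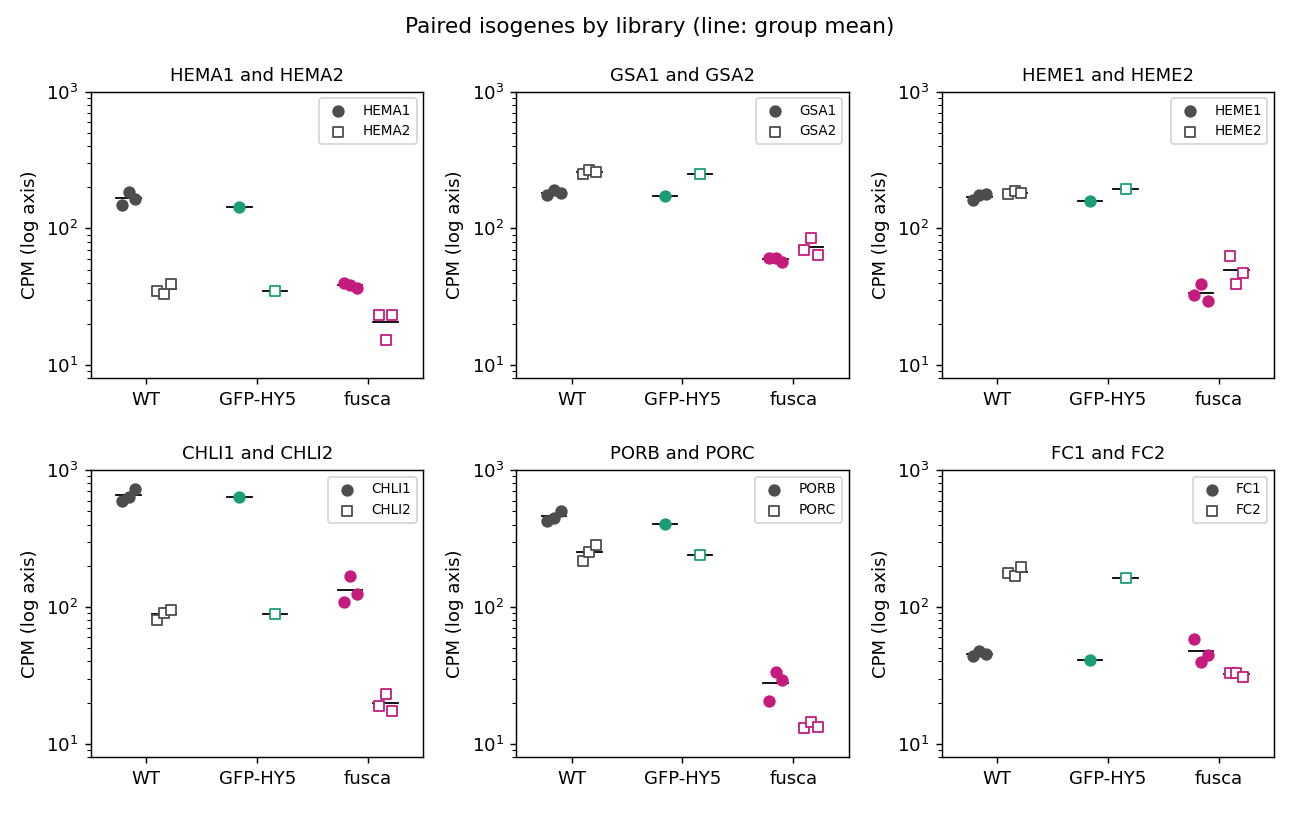
Each panel shows the CPM (log axis) of a pair of isogenes in the 3 WT, the 1 GFP-HY5 and the 3 fusca libraries, with the first gene as filled circles, the second as open squares and a line at each group mean. FC2 drops under FC1 in fusca and HEMA1 comes closer to HEMA2, while the other pairs move down together.

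FLU and GUN1 act on the pathway or report from it, and both fell by less than 2-fold. FLU (AT3G14110), which holds back ALA synthesis in the dark by binding glutamyl-tRNA reductase, stood at 124, 124 and 134 CPM in WT, 131 in GFP-HY5 and 66.2, 101 and 65.4 in fusca. Its log2 fold change was -0.72 ± 0.19 (SE; edgeR adjusted p = 0.015, range over the alternatives 3.1e-06 to 0.15), and it missed the threshold without WT replicate 3 (-0.65), without fusca replicate 1 (-0.62) and with library size only (-0.28). GUN1 (AT2G31400), a plastid pentatricopeptide repeat protein of signalling from plastid to nucleus, stood at 375, 377 and 374 CPM in WT, 380 in GFP-HY5 and 241, 171 and 264 in fusca. The log2 fold change was -0.73 ± 0.18 (SE; edgeR adjusted p = 0.012, range over the alternatives 4.5e-04 to 0.26), and the call was lost without WT replicate 1 (-0.71), 2 (-0.70) or 3 (-0.70) and with library size only (-0.27). Neither gene had overlapping groups, and the 2 kept 60.8% and 60.1% of the WT level. Within the counts of the 34 genes, the share of GUN1 was 4.35 ± 0.26% in WT and 11.7 ± 3.24% in fusca, and that of CHLH was 10.6 ± 0.42% and 4.79 ± 0.69% (SD, n = 3).

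Of the 3 genes of chlorophyll breakdown, 2 fell. NYC1 (AT4G13250), the reductase that starts the conversion of chlorophyll b, stood at 263, 286 and 287 CPM in WT, 269 in GFP-HY5 and 41.4, 48.4 and 40.9 in fusca, and its log2 fold change of -2.68 ± 0.15 (SE; edgeR adjusted p = 1.7e-06) lay within the range of the magnesium branch. PAO (AT3G44880), the oxygenase that opens the porphyrin ring, changed by -0.93 ± 0.15 (SE; edgeR adjusted p = 9.5e-04), with 70.8 CPM in GFP-HY5 above the highest WT library at 61.6. SGR1 (AT4G22920), which removes magnesium from chlorophyll a and is known as a senescence gene, stood at 8.51, 7.85 and 8.46 CPM in WT, 10.3 in GFP-HY5 and 12.6, 7.78 and 8.77 in fusca. Its groups overlapped (0.23 ± 0.21 SE; edgeR adjusted p = 0.44, range over the alternatives 0.026 to 1.00), it was called higher with library size only (0.69), and without fusca replicate 1 the value was near 0. SGR1 and FC1 were the 2 tested members with a positive fold change.

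**Figure D4:**
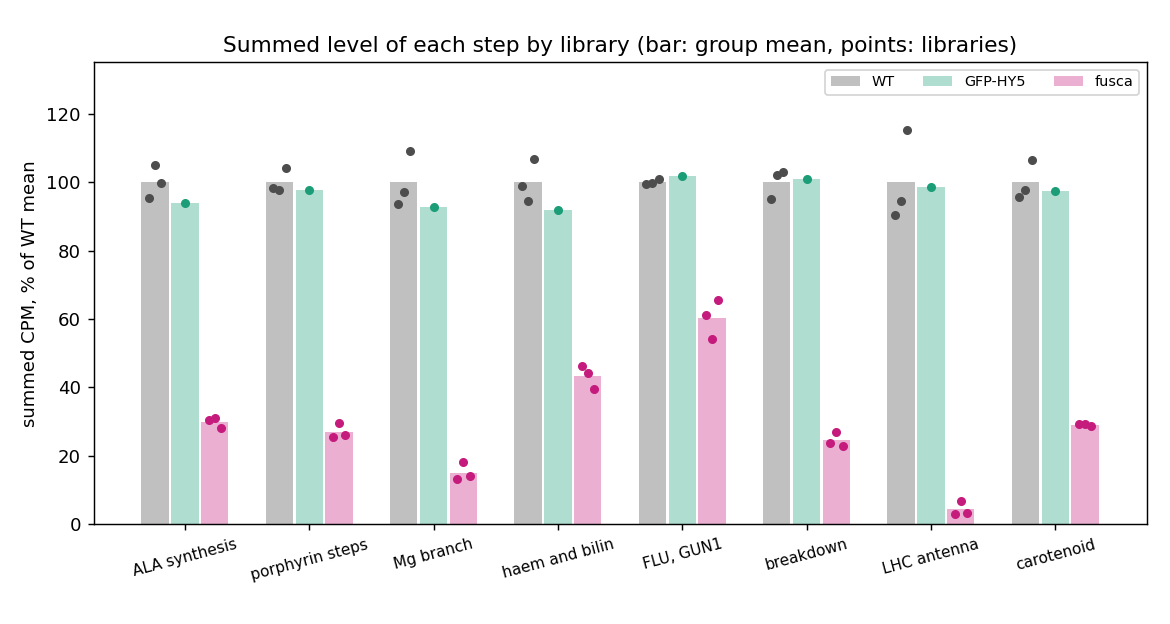
Bars give the mean summed CPM of each step as a percentage of the WT mean and points give single libraries, for the 3 groups, with the light-harvesting (LHC) antenna and carotenoid genes set beside them. In fusca the magnesium branch stands at 15.1% of WT and FLU with GUN1 at 60.3%, and the GFP-HY5 bars lie between 91.9% and 102%.

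The GFP-HY5 library, without the fusca phenotype in its labels, differed little from WT in these genes. None of the 33 was 2-fold or more away from the mean of WT, a size that 3.07% of all tested loci reached. The differences in log2 CPM ran from -0.28 at CHLP to 0.32 at SGR1, with a median of -0.05 against 0.01 over all loci. The value lay below the WT range in 14 genes, above it in 5 and within it in 14. Of all loci 58.3% lay outside that range, 28.8% below and 29.5% above, so the share outside it was near that of all loci. Among those below were HEMA1, GUN4, CHLP and FC2, each by less than 0.3 on the log2 scale from the WT mean, and above it lay HEMB1, HEME2, GUN1, SGR1 and PAO. The median turned to 0.02 with library size only, so no direction is read from it.

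Set against that library, which has no replicate check, the fusca mean was at least 2-fold lower in 26 of the 33 genes, as 11.7% of all loci were, and at least 2-fold higher in 0 (7.58% of loci). The GFP-HY5 value lay above all 3 fusca libraries in 31 genes (32.2% of loci) and within the fusca range at FC1 and SGR1. The largest differences were -4.13 for PORC and -3.87 for PORB on the log2 scale. Seedlings labelled with the same transgene and mutant background thus stood far apart in the transcripts of most of these genes. The labels do not give their descent, and the comparisons of fusca with WT and with GFP-HY5 share the fusca libraries.

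Other loci of the pathway were taken from a list of 24 fixed with the members, of which 21 were tested, 12 fell and 4 rose, with a median of -0.90. The falls included YCF54 (-1.78), which the cyclase needs, LIL3:1 (-1.94) and LIL3:2 (-1.68), which anchor CHLP in the membrane, and GBP (-0.94), which stabilises glutamyl-tRNA reductase. SGRL (AT1G44000), a relative of SGR1, fell from 72.2 to 15.2 CPM (-2.25; edgeR adjusted p = 2.7e-05) and MES16 (AT4G16690), an esterase of chlorophyll catabolites, by a similar amount (-2.04). Among loci of chlorophyll breakdown or modification, RCCR (-1.87), HCAR (-1.08) and NOL (-0.90) also fell, and PPH (0.05) and CLH1 (0.29) did not pass the threshold. HEMA3 (0.006), HEMF2 (0.24) and PPOX2 (-0.19), isogenes of earlier steps, did not pass it either. The remaining falls were UPM1 (-1.36), HO2 (-1.05) and SIRB (-0.83). The 12 of 21 that fell compare with 18.4% of all tested loci. The 4 of 21 that rose compare with 16.7%, so no rise particular to the list is read from them. CYP89A9 (AT3G03470), which acts on late catabolites, had 32, 12 and 22 counts in WT, 14 in GFP-HY5 and 119, 113 and 131 in fusca (log2 fold change 2.01; edgeR adjusted p = 7.1e-04), and CLH2 (AT5G43860), a chlorophyllase, had 16, 22 and 17 counts in WT, 30 in GFP-HY5 and 78, 114 and 69 in fusca (1.81; edgeR adjusted p = 0.0013). SGR2, a further relative of SGR1, and TSPO, a stress-induced protein that binds porphyrins, rose by 1.51 and 1.70. These 4 rest on low counts in WT, at most 32 in a library.

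The antenna genes, whose proteins bind the chlorophyll, and the carotenoid enzymes are set beside the pathway for scale. All 21 tested antenna genes fell, with a median log2 fold change of -4.76 and the lowest values at LHCB2.3 and LHCB2.2, against -2.06 for the tetrapyrrole genes. In fusca LHCB2.3 had 0, 2 and 0 counts and LHCB2.2 had 1, 4 and 1, at or near the floor, so the size of their changes is limited by depth. Of 14 carotenoid genes 13 fell, with a median of -1.23, led by PSY (-3.48), the entry enzyme, and VDE (-2.51). PORB and PORC were the tetrapyrrole genes whose change came closest to the antenna median. No test was made between the lists. Across the 33 genes, those with a higher WT level had the lower fold changes (Spearman rho = -0.60, Pearson r = -0.67, n = 33 genes that share their libraries), a description in which the WT level enters both measures, and over all tested loci rho was -0.36.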

How the data were processed

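Polyadenylated RNA of 9 samples in 3 groups was sequenced on the DNBseq platform, per the labels' protocols, and the 20 ChIP-seq samples were not analysed here. The authors deposited a single table that holds raw counts of reads for each locus. The submitters' processing notes name Trim Galore, STAR, deepTools, HTSeq and the build TAIR10, and the settings and annotation are not given in the sources used here. The table's 5 rows of unassigned reads stayed out of all sizes and tests, with 48.4% to 48.9% of reads on no feature and 0.572% to 0.798% ambiguous.

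The 3 identical GFP-HY5 columns were taken as 1 library, which leaves 7. Loci were kept by filterByExpr on WT and fusca, 21820 of 59999, so a locus low in both was dropped. Of the 34 members, PORA was dropped. Counts were scaled with TMM and tested with edgeR 4.0.16 (estimateDisp, glmQLFit, glmQLFTest) in R 4.3.3, with 7 libraries in 1 fit, Benjamini-Hochberg adjustment and a threshold of 0.05. Standard errors are the fold change divided by the root of the F statistic. Differences that involve GFP-HY5 use log2 CPM with a prior count of 2, and isogene ratios a prior count of 0.5. A count of 3, the floor, is 0.201 to 0.302 CPM. Precision figures cover counting error and the spread of these libraries only.

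Members and lists were chosen with earlier results of these data known. Values in every library are given for the strongest and weakest change of each step, isogene pairs, CHLH, GUN4, FLU and GUN1. From the other pathway, antenna and carotenoid lists the 2 largest changes in each direction are named, with counts in every library for CYP89A9 and CLH2 only. CRD1, CHLP and HY2 and the values of YCF54, LIL3:1, LIL3:2, GBP, SGR2, TSPO, RCCR, HCAR, NOL, PPH, CLH1, HEMA3, HEMF2 and PPOX2 were added after the values were seen. Those of UPM1, HO2 and SIRB were also added then. Symbols or synonyms come from a RefSeq gene table (assembly TAIR10.1), which matched all 34 members. That table also gave the overlaps between loci, by position and without strand.

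Alternatives were RLE and upper-quartile factors, library size only, DESeq2 1.42.0, leaving the low-count filter out, a minimum mean of 10 counts, only WT and fusca libraries, a replicate block and each of the 6 libraries left out.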

Additional observations from a re-analysis of the deposited data

How the results depend on the processing

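Across the 14 alternatives the count of tetrapyrrole genes past the threshold in fusca against WT was 27 to 31, against 30, and 27 of the 33 tested genes kept their direction and their call in each. It was 15 among genes without an overlapping locus, a setting added once values were known that tests 16 genes, and 27 to 31 when single libraries were left out. The median log2 fold change was -1.61 with library size only and -1.91 with upper-quartile factors, and -2.12 to -1.99 when single libraries were left out. The summed level in fusca was 30.8% of WT with library size only and 25% with upper-quartile factors. For GFP-HY5 the median difference turned to 0.017 with library size only and was -0.096 to -0.0093 without single WT libraries. The signs of 3 genes turned, HY2 to 0.10 with library size only, and without fusca replicate 1 FC1 to -0.12 (0.17 at most when single libraries were left out) and SGR1 to -0.00031 (0.37 at most), and in each the cause was not tested. Of 462 values of single genes over these alternatives, 9 lost a call, 3 gained one and 3 turned sign. Same-numbered WT and fusca libraries did not deviate together (correlations -0.045, -0.11 and -0.20). With so few libraries this cannot settle whether the numbers pair them, and the labels do not say. With the replicate block 30 genes passed, at a median of -2.03, and 6774 loci in all against 7651. For the 24 other loci of the pathway, the same alternatives, added once values were known, gave 15 to 19 calls, against 16, with 15 to 17 when single libraries were left out. Genes at a few counts, such as PORA, are limited by depth.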
